A study of Mus musculus with 6 samples.

Results

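Cytochrome P450 enzymes of families 1 to 4 were followed in mouse liver as 73 of the 43346 genes in the count tables. They are the protein-coding genes of the mm10 annotation whose symbol is Cyp, a family digit from 1 to 4, 1 subfamily letter and a number, without Cyp2e1 and Cyp1a2. Symbols with a further letter, such as Cyp4a12a or Cyp3a41a, fall outside this rule. The 73 members form 20 subfamilies, and all 73 have a row in every table. The libraries came from livers of C57BL6 mice aged 3 months, with 3 Control libraries and 3 libraries labelled DKO. DKO stands for a double knockout of β-catenin (Ctnnb1) and γ-catenin (Jup) in hepatocytes, and the study asked what the loss of both does to the liver. The sources used here do not give the genotype of the Control mice beyond that word, the deleting agent or the sex. Nor do they say that the libraries are from different animals, and the spread behind each p-value may then be technical.

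P450 enzymes are haem proteins of the endoplasmic reticulum that insert an oxygen atom into fat-soluble molecules, with electrons passed on by P450 reductase (Por). Families 1 to 3 are known for drugs, pollutants and steroids, and family 4 for the ω-hydroxylation of fatty acids. Most of them are made in hepatocytes, many more strongly around the central vein than around the portal vein. HNF4α and the receptors CAR, PXR, PPARα and the aryl hydrocarbon receptor are known to drive them, each on its own subset.

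The state of the libraries bears on every comparison. The Control libraries held 12320487 to 15869639 reads assigned to genes, and DKO replicates 1, 2 and 3 held 309731, 525037 and 1491237. The members' share of these was 1.60%, 1.68% and 1.70% for Control against 0.119%, 0.931% and 0.101% for DKO replicates 1, 2 and 3. Genes of the mitochondrial genome took 6.34% to 6.57% of gene reads in Control against 6.27%, 14.4% and 62.7% in DKO replicates 1, 2 and 3. Most gene reads of DKO replicate 3 were thus mitochondrial, which lowers its member share and its usable depth. Reads spread over genes that are nearly silent in liver came to 1.34, 0.965 and 2.39 per kb of exon in DKO replicates 1, 2 and 3, against 0.0873 to 0.157 in Control. At these rates 280 of the 370 member reads of DKO replicate 1 are expected as background, 193 of 4886 in replicate 2 and 481 of 1505 in replicate 3. Neither targeted gene passed the test in edgeR: Ctnnb1 had 2945, 2896 and 2650 Control reads against 0, 52 and 65 in DKO (adjusted p = 0.171, edgeR), and Jup 339, 270 and 196 against 6, 1 and 11 (adjusted p = 0.0847). DESeq2 gave 0.0456 for Ctnnb1 and 0.051 for Jup, and edgeR without DKO replicate 1 gave 0.0119 and 0.0434. With calls that turn on the tool and on 1 library, they do not settle the labels, so every direction below is one between libraries as labelled. The summed level of 5 hepatocyte markers was 109890 to 121920 CPM (read counts scaled to library size) in Control against 640, 36279 and 6870 for DKO replicates 1, 2 and 3. Summed Kupffer cell markers were at 195 to 257 CPM in Control against 6.37 to 114. In the same order of groups, endothelial markers were 173 to 309 and 198 to 299 CPM, stellate cell markers 198 to 301 and 138 to 234, and bile duct markers 78.8 to 100.4 and 129 to 227. Each of these lists had 5 genes, none of them at 0 in all DKO-labelled libraries, and their part in the results was not tested. Fewer hepatocytes and less P450 RNA per hepatocyte cannot be told apart in such bulk samples.

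In Control liver a few enzymes made up most of the members' summed level. Levels between genes are given as RPKM, CPM divided by the kb of exon. At least 1 RPKM was reached by 47 of the 73 members, at least 10 RPKM by 31 and at least 100 RPKM by 19. The 12 highest members held 76.3% of the summed RPKM of all members. Cyp3a11, the main mouse CYP3A enzyme of drug and steroid oxidation and a PXR target, was first at 1027, 1018 and 1162 RPKM in Control replicates 1, 2 and 3 (1069 ± 80.8, SD, n = 3). For scale, Cyp2e1, outside the rule, stood at 3407 ± 594 RPKM and Cyp1a2 at 362 ± 53.5.

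**Figure D1:**
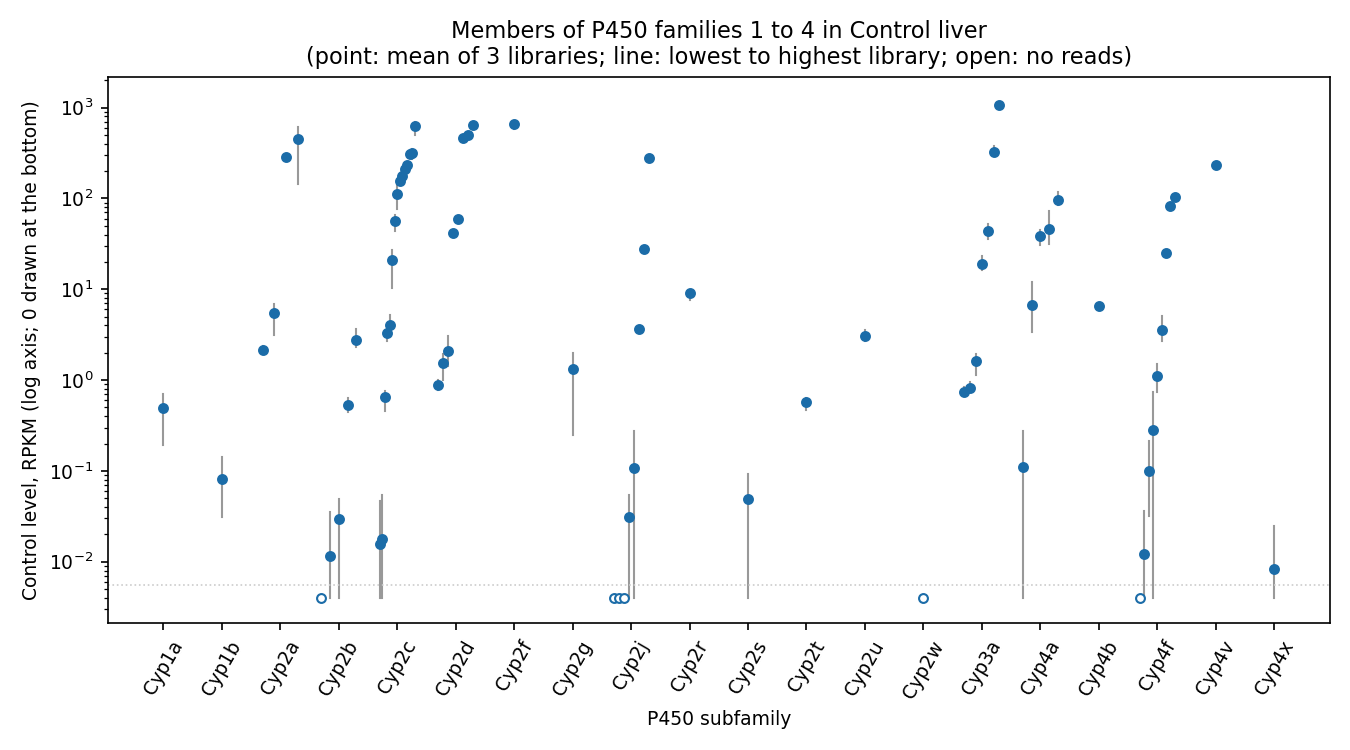
Control level of each member in RPKM (log axis) by subfamily, as the mean of 3 libraries with a line from the lowest to the highest library. The Cyp2c, Cyp2d and Cyp3a subfamilies each span members from below 1 RPKM to 631, 637 and 1069 RPKM, and 6 members had no Control read (open points).

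Cyp2f2, which oxidises naphthalene and is known from portal-side hepatocytes, followed at 665 ± 66.9 RPKM in Control. Cyp2d9, a testosterone 16α-hydroxylase that is known to be higher in males, stood at 637 ± 23.8 RPKM. Cyp2c70, which makes the muricholic acids of mouse bile, stood at 631 ± 113 RPKM. The neighbours Cyp2f2, Cyp2d9 and Cyp2c70 in this order lay within their spread of one another, while Cyp3a11 was above each of them in every Control library. Below them came Cyp2d10 at 503 ± 20.02 RPKM, Cyp2d26 at 457 ± 24.3 and the coumarin 7-hydroxylase Cyp2a5 at 453 ± 268, of which Cyp2a5 overlapped both. Cyp3a25 at 328 ± 44.4, Cyp2c50 at 317 ± 40.8 and the CAR target Cyp2c29 at 307 ± 15.6 RPKM could not be told apart by their spread. Cyp2a12 at 288 ± 12.9 and Cyp2j5, an epoxygenase of arachidonic acid, at 278 ± 20.7 RPKM closed the 12 highest.

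By subfamily, the 15 Cyp2c genes had the highest summed level in Control, 2226 ± 271 RPKM, or 28.5% of the members' total. The 8 Cyp2d genes followed with 1703 ± 53.9 RPKM (21.96%) and the 7 Cyp3a genes with 1463 ± 71.0 (18.9%). Cyp2a genes summed to 749 ± 283 RPKM, and the single Cyp2f gene alone held 8.54% of the total. The fatty acid hydroxylases were lower, with Cyp4v3 at 235 ± 10.7 RPKM, the 9 Cyp4f genes at a summed 216 ± 1.15 and the 5 Cyp4a genes at 187 ± 51.2. Cyp4f14, known to hydroxylate leukotriene B4, led its subfamily at 103 ± 5.77 RPKM, and the PPARα target Cyp4a10 led the Cyp4a genes at 96.5 ± 17.2. Cyp2r1, a vitamin D 25-hydroxylase, stood at 9.07 ± 1.20 RPKM, Cyp4b1, best known from lung, at 6.60 ± 0.47 and Cyp2u1, a hydroxylase of long-chain fatty acids, at 3.07 ± 0.43. The inducible targets were low: Cyp2b10, which CAR activators raise, had 100, 55 and 47 reads in Control (2.77 ± 0.73 RPKM), and the aryl hydrocarbon receptor targets Cyp1a1 and Cyp1b1 had 7, 18 and 19 and 11, 2 and 4. Cyp2g1, an enzyme of the olfactory mucosa, had 7, 47 and 35 reads. No Control read was found in any library for 6 members, namely Cyp2b19, Cyp2j7, Cyp2j12, Cyp2j13, Cyp2w1 and Cyp4f40.

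Genes known to be higher in female liver were mostly low in Control. Cyp2b9 had 11, 13 and 9 reads, Cyp2b13 had 1, 1 and 0, Cyp3a16 had 15, 14 and 14 and Cyp3a44 had 20, 16 and 18. Of the 9 members on the female-high list, Cyp2c40 at 56.7 ± 11.3 RPKM, Cyp4a14 at 38.3 ± 7.26 and Cyp2c69 at 21.1 ± 9.26 were the highest. Cyp2d9, the single member on the male-high list, stood above each of them in every Control library. These levels are descriptions of 3 libraries whose sex is not in the labels.

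The Control libraries differed among themselves in several members, among them Cyp2a5 and Cyp4a genes. Among the 27 members with at least 3000 reads over the Control libraries, the coefficient of variation of the CPM had a median of 7.56%, and Cyp2a5 had the highest value, 59.1%. Cyp2a5 had 3906, 13805 and 12160 reads in Control replicates 1, 2 and 3, so that replicate 1 was at 0.236 of the mean CPM of the other 2. Alas1, the first enzyme of haem synthesis, was at 0.147 and the bile acid enzyme Cyp7a1 at 0.0785 in the same comparison. All of the Cyp4a genes with over 10 reads in each Control library were higher there, Cyp4a10 at 1.34, Cyp4a14 at 1.30, Cyp4a32 at 2.25 and Cyp4a31 at 2.93 of the mean of the other 2. Cyp2c69 was lower in replicate 1, at 0.394.

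Near-identical neighbours limit what a count can say for some members. Most of the genes lie in clusters of copies. Chromosome 19 carries 15 Cyp2c genes, chromosome 15 carries 8 Cyp2d genes and chromosome 5 carries 7 Cyp3a genes. Of these, Cyp2c23 (from chr19:44005022) and Cyp3a13 (from chr5:137892932) lie apart from the rest and share 0% of their 50-base stretches with another gene. Of all stretches of 100 bases in the transcripts of Cyp2c40, 41.7% also occur in another gene, most often Cyp2c69. The share was 36.3% for Cyp2c69, 23.7% for Cyp2c67, 20.1% for Cyp4a32 and below 20% for the other members, with a median of 1.18% over all 73. With stretches of 50 bases, 26 members passed 20%, including Cyp2a5 (38.6%), Cyp2d10 (36.7%) and Cyp2c50 (29.9%). HTSeq sets aside reads that align to more than 1 place, so levels of such genes are uncertain, and the set-aside share was 18.1% to 20.2% for Control against 9.90%, 14.4% and 28.6% for DKO replicates 1, 2 and 3. Strand use in counting is not given in the sources used here, so reads of Cyp2f2, Cyp2u1 and Cyp4x1 cannot be told apart from those of antisense genes over 13.5%, 10.4% and 10.8% of their exons.

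The title of the series names HNF4α, and its binding motif was found in a set of Cyp2c and Cyp3a promoters. RefSeq promoter windows on GRCm38 (the mm10 assembly), from 250 bases before to 50 after a gene's start, matched 60 of the 73 members by symbol. CAAAGTCCA, a strong HNF4 site, occurred on either strand in 8 of the 60 (13.3%), against 0.555% of the 27025 genes with a window. The stretches below show the motif in capitals with 20 bases to each side, on the strand of the gene, because they show how alike the windows are within a cluster.
Cyp3a11: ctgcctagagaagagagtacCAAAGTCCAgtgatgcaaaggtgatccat
Cyp3a16: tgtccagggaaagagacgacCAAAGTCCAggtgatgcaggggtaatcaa
Cyp2c70: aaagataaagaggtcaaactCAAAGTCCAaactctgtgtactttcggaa
Cyp2c68: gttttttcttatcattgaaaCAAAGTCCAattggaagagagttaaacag
Cyp2c67: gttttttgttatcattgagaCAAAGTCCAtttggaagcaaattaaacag
Cyp2c40: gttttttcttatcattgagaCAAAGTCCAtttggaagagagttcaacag
Cyp2c69: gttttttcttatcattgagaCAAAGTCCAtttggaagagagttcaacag
Cyp2c65: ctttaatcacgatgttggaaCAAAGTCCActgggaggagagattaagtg

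The Cyp3a11 stretch lies at chr5:145879935-145879983, with the motif starting 109 bases before the start, and the Cyp2c70 stretch at chr19:40187322-40187370, 64 bases before it. The stretches of Cyp2c40 (chr19:39812831-39812879) and Cyp2c69 (chr19:39886816-39886864) are the same in all 49 bases. These 4 lie on the minus strand. Control levels of the 8 genes ran from 0.018 RPKM for Cyp2c65 and 0.75 for Cyp3a16 to 631 for Cyp2c70 and 1069 for Cyp3a11, so genes with the motif were found at both ends of the range. The looser form CAAAGTNCA, which includes the first, was in 12 of 60 member promoters and 1.64% of all, and TGAACTTTG in 0 of 60 and 0.448%. ACTTTG, part of these motifs, was in 27 of 60 against 16.1% of all.

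A different motif marked part of the Cyp3a cluster. CAAAGGTCA, part of a direct repeat read by HNF4α, PPARα and other nuclear receptors, occurred in 3 of 60 member promoters and in 0.544% of all. The rest of the repeat was not required. All 3 lie in the Cyp3a cluster and are shown with the motif in capitals.
Cyp3a25: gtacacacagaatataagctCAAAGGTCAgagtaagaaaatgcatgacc
Cyp3a57: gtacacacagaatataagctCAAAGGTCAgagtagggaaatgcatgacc
Cyp3a59: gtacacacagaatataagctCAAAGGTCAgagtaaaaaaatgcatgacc

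They stood at 328, 1.61 and 19.0 RPKM in Control. ATCAAAG, the core bound by TCF proteins, the partners of β-catenin on DNA, was in 2 of 60 member promoters (3.33%) and 4.29% of all. Both are Cyp2c genes, shown with the core in capitals.
Cyp2c29: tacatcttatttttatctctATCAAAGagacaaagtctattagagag
Cyp2c39: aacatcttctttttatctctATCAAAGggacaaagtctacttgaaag

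The Cyp2c29 stretch lies at chr19:39286946-39286992 and that of Cyp2c39 at chr19:39510706-39510752, both on the plus strand. Another window under the symbol Cyp2c39 holds the same 47 bases at chr19:39347202-39347248, outside the gene, which begins at chr19:39510862. TATAAA was in 41.7% of member promoters against 15.7% of all, TTGCNNAA (C/EBP) in 15 of 60 against 12.2%, GCGTG (aryl hydrocarbon receptor core) in 21.7% against 35.2% and TTANGTAA (D-box) in 1.67% against 2.72%. The 10 motifs were searched on both strands and chosen after the values were seen. A match describes letters in this window and is no measured binding.

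In the DKO-labelled libraries most member levels were lower than in Control, but the libraries differed so widely that few passed the test. Summed over all members, Control replicates 1, 2 and 3 had 7138, 8097 and 8102 RPKM and DKO replicates 1, 2 and 3 had 213, 3126 and 608. The DKO values were 2.74%, 40.2% and 7.82% of the Control mean. Every DKO library lay below every Control library in this sum and in that of each of the 9 main subfamilies. The Cyp2c sum was 37.0, 924 and 95.6 RPKM in DKO replicates 1, 2 and 3, the Cyp2d sum 37.7, 632 and 77.1 and the Cyp3a sum 7.25, 536 and 151. On a scale set instead by 155 abundant liver genes, the direction was not kept: the members' sum was then 388%, 111% and 117% of Control in DKO replicates 1, 2 and 3. These sums include background reads. With the expected background counted in, member reads were 0.934, 1.07 and 0.848 of those expected in DKO replicates 1, 2 and 3. The scale was set on reads that include background, so a typical gene need not sit at 1. In the same order, the 155 abundant genes had median ratios of 0.635, 0.978 and 0.910. Scaling by the abundant genes took the median log2 fold change over all genes tested from -0.08 to 4.62.

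**Figure D2:**
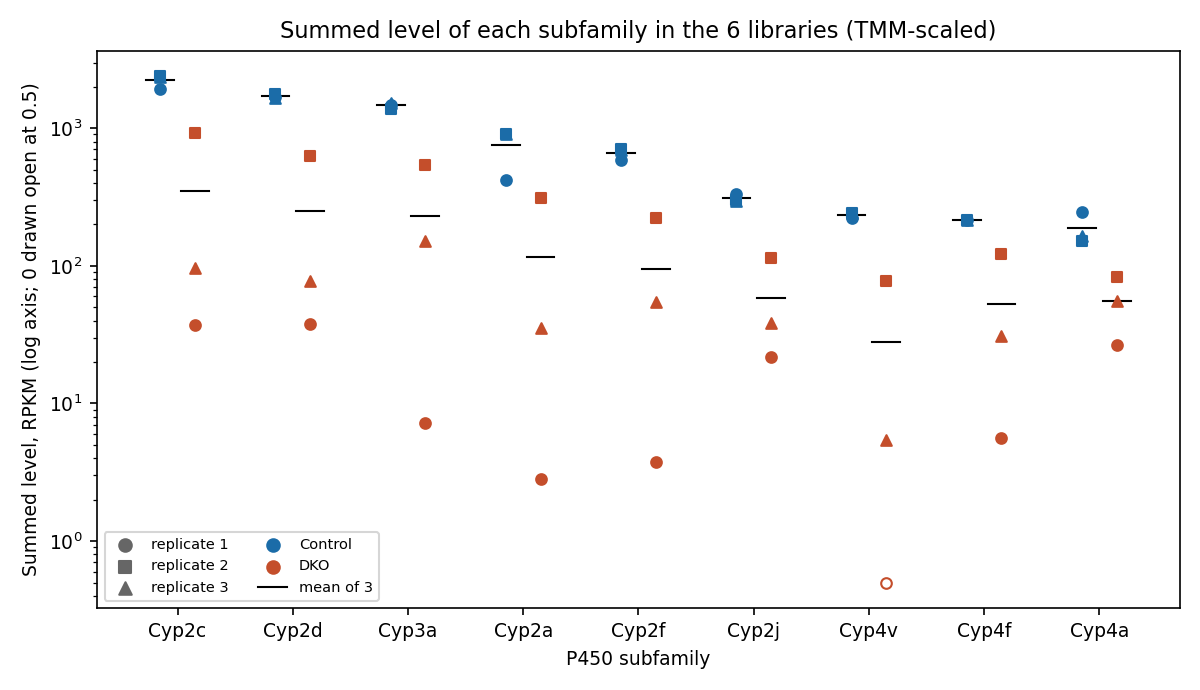
Summed RPKM (log axis, TMM-scaled) of the 9 subfamilies with the highest Control level, with 1 point per library and a bar at the mean of 3. Control points cluster, while the DKO-labelled points of Cyp2c spread from 37.0 to 924 RPKM. DKO replicate 2 is the highest of the 3 in every subfamily shown.

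The test compared DKO with Control for 15561 genes, with edgeR's quasi-likelihood test and Benjamini-Hochberg adjustment. It covered 56 of the 73 members, as 17 had too few reads. Of the 56, 10 members were higher and 6 lower at an adjusted p under 0.05. Of all genes tested, 31.3% were higher and 12.8% lower, so the members' 17.9% higher was below the background and their 10.7% lower near it. With DESeq2's size factors 10 were higher and 18 lower, with DESeq2 itself 14 and 30, and on the abundant-gene scale 17 and 1. Without DKO replicate 2, 33 members were lower, and without Control replicate 1 only Cyp2j9. All DKO values lay below all Control values for 34 of the 56 and above them for 10, against 36.4% and 34.0% of all genes tested. The median log2 fold change of the tested members was -2.36 (all genes -0.08). On the abundant-gene scale it was 1.09 (all genes 4.62).

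**Figure D3:**
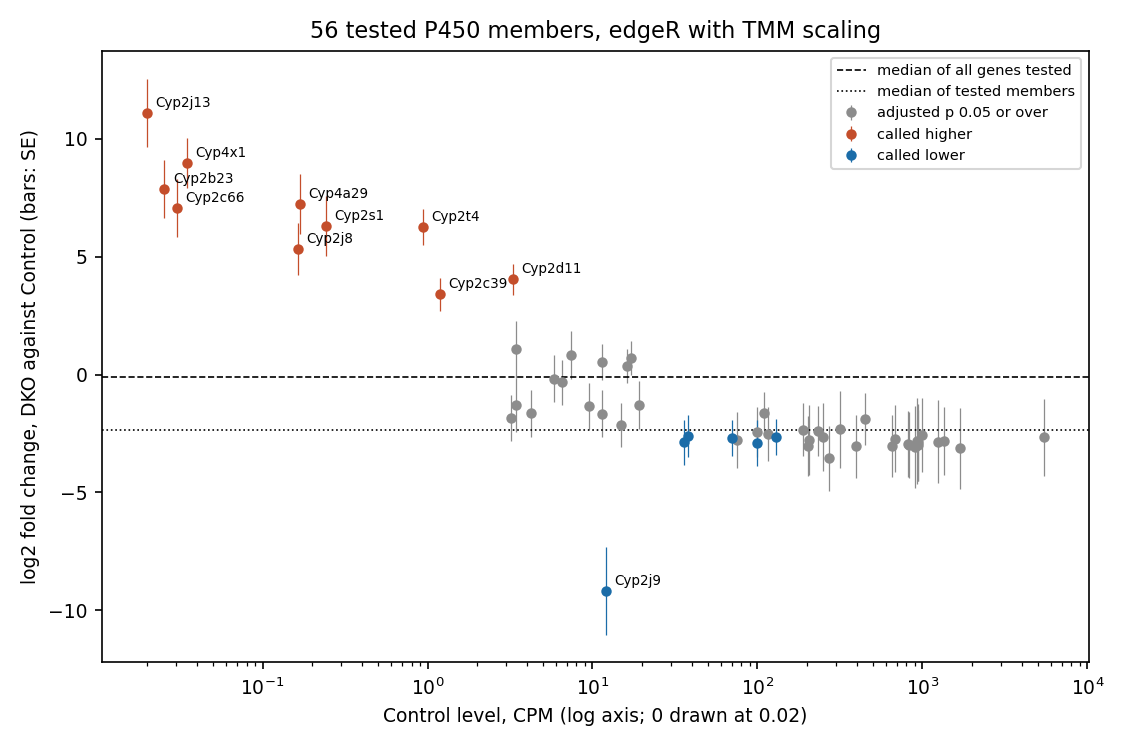
Log2 fold change of DKO against Control (edgeR, bars show the SE) by Control level in CPM (log axis) for the 56 tested members. The 10 members called higher all had a low Control level, and the abundant members lie together near the members' median of -2.36 with wide error bars.

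The abundant enzymes spread widely between the DKO-labelled libraries. Cyp3a11 had 68550, 56894 and 56978 Control reads against 15, 1237 and 418 in DKO replicates 1, 2 and 3. On the log2 scale the difference was -2.65 ± 1.64 (SE), and it did not pass (adjusted p = 0.198, edgeR). Cyp2f2 had 15611, 15760 and 13608 reads against 6, 264 and 103 (-2.82 ± 1.44, adjusted p = 0.132, edgeR). Cyp2d9 had 21502, 19348 and 16109 against 3, 327 and 18 (-3.12 ± 1.72, adjusted p = 0.156, edgeR). In CPM, which allow for depth, all DKO values of these genes lay below all Control values, and DKO replicate 2 was the highest of the 3. For Cyp3a11 it stood at 2127.5 CPM against 5185.5 in the lowest Control library. The other 9 of the 12 highest members had log2 fold changes from -3.04 for Cyp2j5 to -2.57 for Cyp2a12, with adjusted p from 0.0873 to 0.222 in edgeR, so none passed there. DESeq2 gave these 9 adjusted p from 0.00158 for Cyp2j5 to 0.0748 for Cyp2c50, and all but Cyp2c50 passed. In DESeq2 the first 3 passed as well, Cyp3a11 at 0.0175, Cyp2f2 at 0.00564 and Cyp2d9 at 0.0179. Cyp4v3 at -3.08 (adjusted p = 0.163), Cyp4f14 at -2.63 (0.156) and Cyp4a10 at -3.03 (0.0822) did not pass in edgeR either. Of the 29 members with at least 50 CPM in Control, 0 were higher and 3 lower, with 9 at an unadjusted p under 0.05 in edgeR. Among all 3206 genes at that level 9 were higher and 719 lower. The median log2 fold change was -2.77 for these members and -2.10 for these genes.

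The members called lower were mid-level enzymes. Cyp2j9, an epoxygenase gene, had 158, 142 and 109 Control reads and none in any DKO-labelled library, each at 0 (adjusted p = 0.00505, edgeR). With a floor of 3 reads over the DKO group it was at least 9.25-fold lower, and at least 1.12-fold lower on the abundant-gene scale. It kept its call under every alternative run. Cyp3a13, the CYP3A gene known from the intestine, had 2021, 1393 and 1029 reads against 5, 20 and 20 and fell by 2.65 ± 0.75 on the log2 scale (adjusted p = 0.0175, edgeR). Cyp4a32 had 1457, 525 and 490 against 3, 13 and 7 and fell by 2.68 ± 0.77 (adjusted p = 0.0191, edgeR). Cyp2c69 had 233, 485 and 443 reads against 0, 5 and 6 (adjusted p = 0.0345, edgeR). Cyp2j6, which is also found outside liver, had 1332, 1047 and 989 against 0, 13 and 17 (adjusted p = 0.0379, edgeR), and Cyp3a59 had 608, 354 and 344 against 0, 6 and 8 (adjusted p = 0.0408, edgeR). In CPM the groups do not overlap in any of the 6. These 5 besides Cyp2j9 lost the call after subtraction of background (adjusted p from 0.121 to 0.219, edgeR), with log2 fold changes of similar size, from -2.92 for Cyp2c69 to -2.40 for Cyp3a13. They also lost it without Control replicate 1. Cyp2c69, Cyp2j6 and Cyp3a59 lost it without Control replicate 2 or 3, and Cyp2c69, Cyp2j6 and Cyp4a32 without DKO replicate 3. On the abundant-gene scale their fold changes turned positive, from 0.43 for Cyp2j6 to 1.59 for Cyp3a13, and none passed.

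The members called higher had few reads in Control, from 0 for Cyp2j13 to 36, 25 and 47 for Cyp2d11. Of the 10, 7 had at most 10 reads over the Control libraries, and such genes reached the test only through their DKO reads. So did Cyp2t4 and Cyp2c39, which had fewer Control reads than Cyp3a44 (20, 16 and 18), a member that was not tested. Cyp2t4 had 10, 11 and 10 Control reads against 78, 53 and 26, a log2 fold change of 6.25 ± 0.77 (adjusted p = 0.00069, edgeR). Its DKO reads were 31.3, 25.4 and 4.83 times the expected background. A detection limit was set at the 95th percentile of this ratio among silent genes, 4.78, 5.12 and 4.34 in DKO replicates 1, 2 and 3. Cyp2t4 and Cyp2d11 passed it in all 3 libraries and Cyp2c39 in 1. Cyp2d11 had 36, 25 and 47 reads against 30, 44 and 46 (4.04 ± 0.66, adjusted p = 0.00106, edgeR), at 12.5, 21.8 and 8.86 times the background. Raw counts of Cyp2d11 were alike in both groups, and it shares 12.2% of its 100-base stretches with other genes, most with Cyp2d10. Cyp2c39 had 11, 15 and 13 reads against 9, 8 and 12 (3.40 ± 0.70, adjusted p = 0.00329, edgeR), at 4.67, 7.23 and 4.15 times the background. Its raw counts were alike in both groups too.

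Several of the other higher calls had reads near the expected background. Cyp2j13 had no Control read and 47, 41 and 8 DKO reads, at least 520-fold higher with 3 reads over the Control group (adjusted p = 0.000915, edgeR), at 7.21, 10.3 and 0.88 times the background. Cyp4x1, which is known from brain, had 0, 0 and 1 reads against 21, 13 and 26 (adjusted p = 0.000671, edgeR), a ratio of 882 with a counting interval from 152 to 35428. Its DKO reads were 3.19, 2.77 and 2.39 times the background and below the detection limit in all 3 libraries. Cyp4a29 had 0, 1 and 4 reads against 23, 3 and 42 and passed the limit in 2 libraries. Cyp2b23 (1, 0 and 0 against 2, 6 and 20) and Cyp2s1 (6, 3 and 0 against 3, 29 and 12) passed it in none. Cyp2c66 (0, 1 and 0 against 2, 1 and 14) and Cyp2j8 (1, 0 and 4 against 2, 8 and 5) passed it in 1 each. Adjusted p-values of these 5 in edgeR ran from 0.00094 to 0.00368. Since all of the 10 but Cyp2d11 reached the test through the group where they are high, their calls are descriptions of these libraries.

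**Figure D4:**
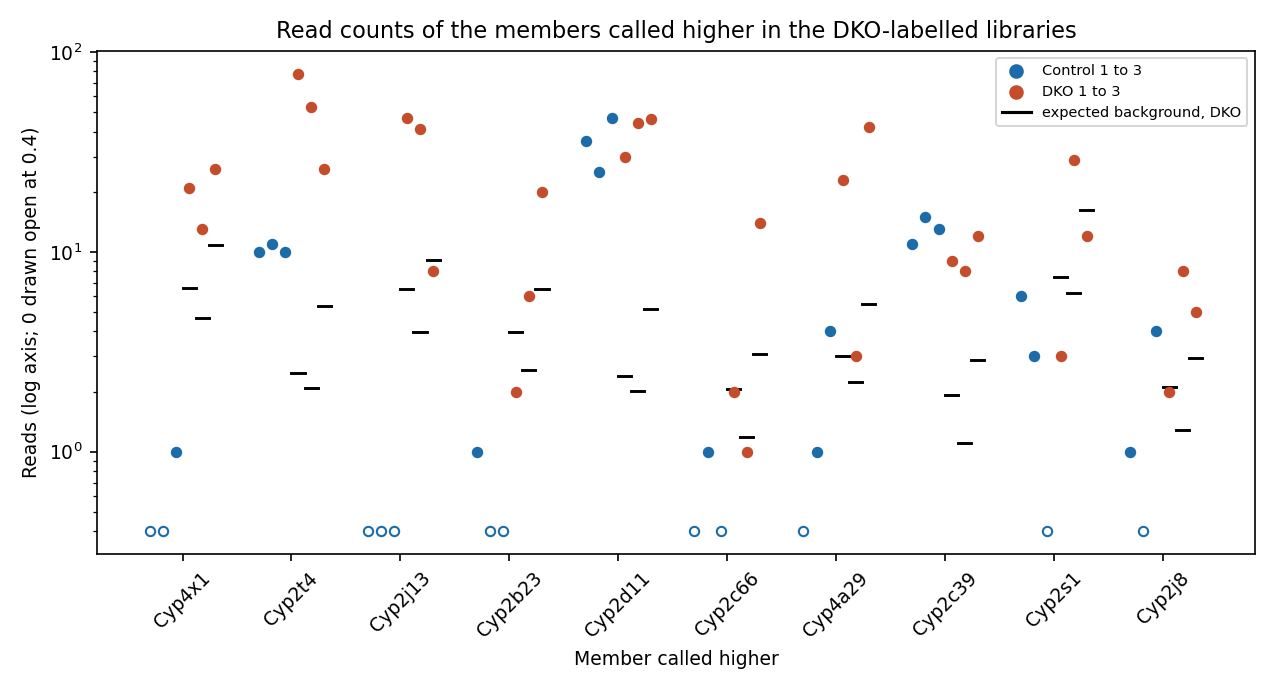
Reads (log axis) of the 10 members called higher in each of the 6 libraries, with a black bar at the reads expected from background in each DKO-labelled library. Cyp2t4 and Cyp2d11 stand well above the bars in all 3 libraries, while Cyp2b23 and Cyp2s1 lie near them.

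Counted over all 73 members, 5, 35 and 13 passed the detection limit in DKO replicates 1, 2 and 3. By its setting, silent genes above their own 95th percentile pass it too, so a pass in 1 library can be background. The 5 of 73 in DKO replicate 1 is near the share of silent genes that pass, so that count alone shows no detection. The share that passes among all genes was not counted. Passing in all 3 was found for Cyp2c23, Cyp2d11 and Cyp2t4, in 2 libraries for 10 members, in 1 for 24 and in none for 36. At 0 reads were 36, 15 and 5 members in DKO replicates 1, 2 and 3. Cyp2c23, an arachidonic acid epoxygenase of kidney and liver, had 5139, 5465 and 4467 reads in Control and 27, 169 and 40 in DKO (-1.88 ± 1.10, adjusted p = 0.177, edgeR).

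Each DKO-labelled library was then compared with the reads expected from the Control proportions, scaled by the abundant genes, plus background. This covered the 27 members with at least 3000 Control reads, and intervals are exact 95% Poisson intervals that cover counting error only. In DKO replicate 2 ratios ran from 0.537 to 1.74 with a median of 1.03, and 4 intervals lay below 1, 7 above and 16 held it. In DKO replicate 3 ratios ran from 0 to 2.00 with a median of 0.602, and 16 intervals lay below 1, 2 above and 9 held it. Other genes with 3000 to 30000 Control reads had a median ratio of 1.26 there, with 5th and 95th percentiles of 0.238 and 5.05. The 155 abundant genes, which have over 30000 Control reads as some members do, had a median of 0.910 there, with percentiles of 0.282 and 3.56. In DKO replicate 1 expected reads were few, and 10 intervals lay below 1, 1 above and 16 held it. The members' median there was 0.379. Other genes with 3000 to 30000 Control reads had a median of 0.701 and the 155 abundant genes 0.635, so ratios below 1 were common outside the members too. In DKO replicate 2 these medians were 1.02 and 0.978. Intervals of other genes were not counted, so the interval counts are no result about the members alone.

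The low ratios in DKO replicate 3 were mostly Cyp2c, Cyp2d and Cyp4 enzymes. Cyp2c29 had 9 reads where 63.7 were expected (ratio 0.141, interval 0.0646 to 0.268), and Cyp2c50 had 8 against 60 (0.133). Cyp2c37 had 0 against 15.9, and Cyp2c54 3 against 22.2. Cyp2d9 had 18 against 114 (0.158), Cyp2a5 13 against 61.5 (0.212) and Cyp4a10 3 against 19.2 (0.156). In DKO replicate 2 the same genes had ratios from 0.905 for Cyp2d9 to 1.63 for Cyp2c54. The Cyp3a genes and Cyp2f2 were at or above expectation in replicate 3: Cyp3a11 had 418 reads against 346 (1.21, interval 1.10 to 1.33), Cyp3a25 had 93 against 46.5 (2.00, 1.62 to 2.45) and Cyp2f2 had 103 against 90.0 (1.14, 0.934 to 1.39). Of 8 members known as pericentral, 6 had intervals below 1 and 1 above in replicate 3, with a median ratio of 0.149. The other 19 had 10 below, 1 above and a median of 0.618. The 13 Cyp2c and Cyp2d genes among these members had 11 below, 0 above and a median of 0.293 there. Cyp2c29, Cyp2c37, Cyp2c50 and Cyp2c54 are in both this set and the pericentral list, so place and subfamily cannot be told apart. In replicate 2 the 8 had 0 below and 3 above, with a median of 1.10. In replicate 1 the 8 had 3 below and a median of 0.311, and the other 19 had 7 below, 1 above and a median of 0.379. Single genes in replicate 1 did not follow replicate 3: Cyp3a11 was at 0.421 (interval 0.235 to 0.694) and Cyp3a25 at 0.165 (upper bound 0.917), while Cyp2c29 was at 1.17 and Cyp2d10 at 1.41, both with intervals that held 1. Others were low in both replicates, and in replicate 1 Cyp2d9 was at 0.209 (upper bound 0.610) and Cyp2c50 at 0 (upper bound 0.595). The order of replicate 3 was not seen in replicate 2. With so few reads expected, replicate 1 cannot show whether it shares that order.

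**Figure D5:**
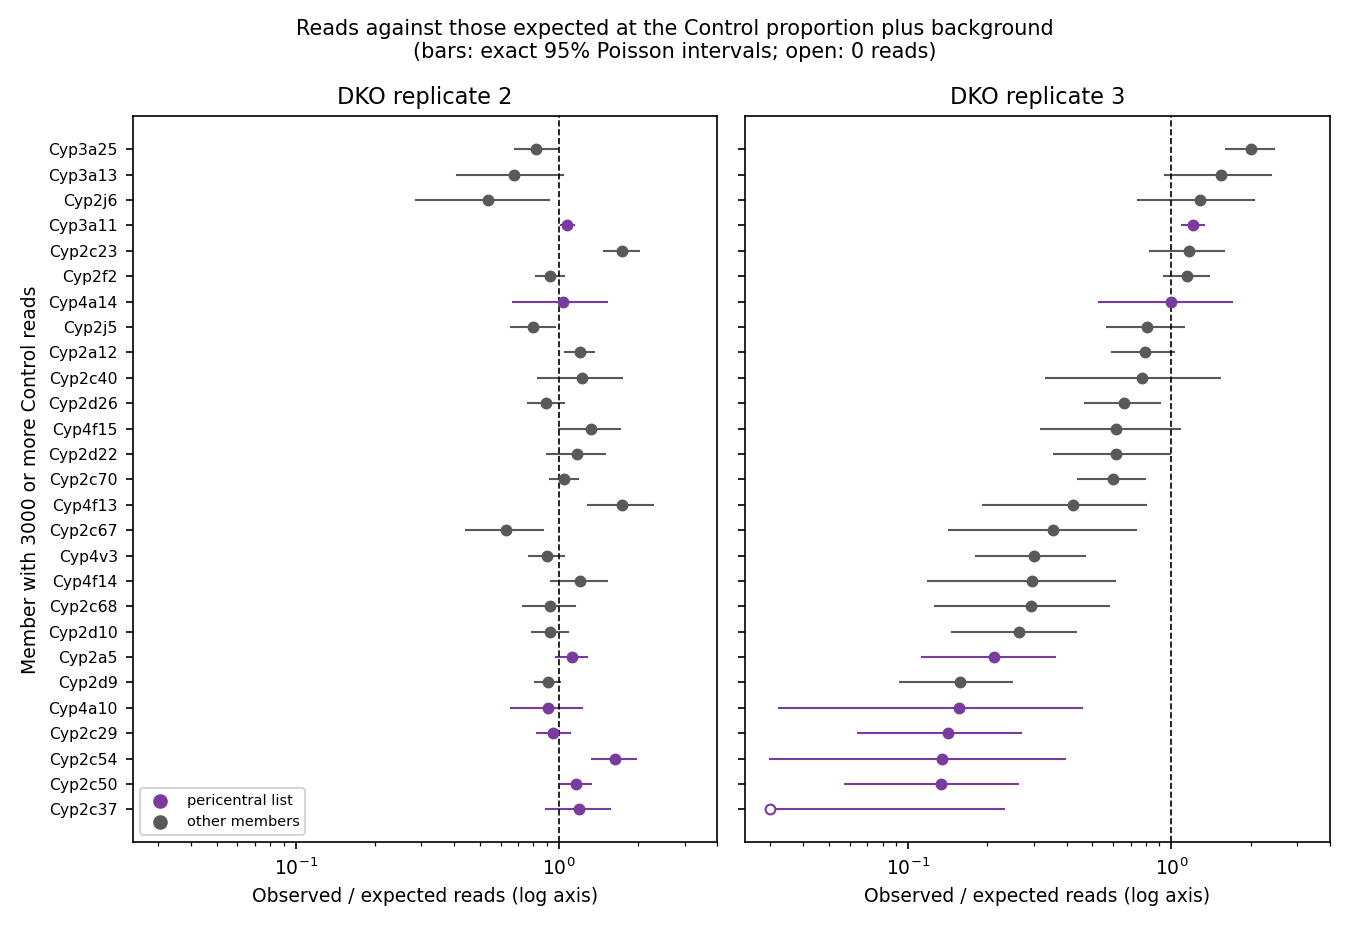
Observed over expected reads (log axis) of the 27 members with at least 3000 Control reads in DKO replicates 2 and 3, with exact 95% Poisson intervals. The members lie around 1 in replicate 2, while in replicate 3 they run from 0 reads for Cyp2c37 to 2.00 for Cyp3a25.

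Genes that serve P450 enzymes, not only those of families 1 to 4, also had mostly negative fold changes with TMM scaling. The list medians turned positive on the abundant-gene scale. Of the genes named below, Por, Hmox2, Dbp, Foxa1 and Nr1i3 stayed negative there, from -1.56 for Nr1i3 to -0.20 for Hmox2. None of them passed on that scale, with adjusted p from 0.336 for Nr1i3 to 0.879 for Hmox2 (edgeR). Further genes of these lists stayed negative too, among them Rxra (-0.44) and Pgrmc1 (-0.37). The counts below stand against 31.3% higher and 12.8% lower among all genes tested, and against 9 higher and 719 lower of the 3206 genes whose Control level reached 50 CPM. Of 9 tested electron donors, 0 were higher and 2 lower (2 at an unadjusted p under 0.05, edgeR), with a median log2 fold change of -2.37, or 1.68 on the abundant-gene scale. The ferredoxin gene Fdx1 fell by 2.81 (adjusted p = 0.0184, edgeR) and the haem-binding Pgrmc2 by 2.45 (0.0255). Por had 6047, 6982 and 5654 reads in Control and 1, 98 and 25 in DKO (-3.11, adjusted p = 0.103, edgeR). Of 12 genes of haem synthesis and breakdown, 0 were higher and 4 lower (8 at an unadjusted p under 0.05), with a median of -2.56, or 2.37 on the abundant-gene scale. Among the 4 were the biliverdin reductase gene Blvrb (-2.96, adjusted p = 0.00434, edgeR), the synthesis enzyme Urod (-2.54, 0.00618) and the haem oxygenase gene Hmox2 (-3.08, 0.0291). Of 27 tested regulators, 1 was higher and 3 lower, with a median of -2.03, or 1.86 on the abundant-gene scale. The clock factor Dbp fell by 4.33 (adjusted p = 0.00423, edgeR), Foxa1 by 4.13 (0.0068) and the PXR gene Nr1i2 by 2.04 (0.0242). The coactivator gene Ppargc1a was called higher (2.81, adjusted p = 0.0386, edgeR), but its groups overlap: it had 91, 62 and 65 Control reads against 46, 1 and 69, and DKO replicate 2, at 1.72 CPM, lay below the Control range of 5.65 to 6.95. That call was lost after background subtraction (adjusted p = 0.165, edgeR), without DKO replicate 3 (0.0744) and with the replicate number as a block. Hnf4a had 7653, 5540 and 4645 reads against 1, 121 and 55 and did not pass (-2.55, adjusted p = 0.152, edgeR). The CAR gene Nr1i3 had 5655, 5144 and 4500 against 0, 51 and 9 (-3.83, adjusted p = 0.0678, edgeR). Of 13 tested P450 genes of other families, 1 was lower, the bile acid enzyme Cyp8b1 (-4.09, adjusted p = 0.0127, edgeR). The 4 called higher, Cyp11a1, Cyp11b1, Cyp19a1 and Cyp24a1, had no Control read and so entered the test only through their DKO reads. Cyp19a1 passed the detection limit in 1 DKO-labelled library and the other 3 in none.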

How the data were processed

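For each of 6 liver libraries the authors deposited raw read counts by Ensembl gene. The submitters' processing notes name STAR, HTSeq and mm10. Versions, library kit and strand setting: not given in the sources used here. Of 43346 IDs, 42462 matched the gene name table. The 5 rows that name no gene were left out; their share was 65.1% to 66.7% for Control and 97.3%, 95.4% and 95.3% for DKO replicates 1 to 3. No pair of libraries agreed within sampling noise.

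From the counts, edgeR 4.0.16 (R 4.3.3) was run with TMM, filterByExpr, robust quasi-likelihood fits and a two-sided Benjamini-Hochberg adjusted p under 0.05. CPM and RPKM are TMM-scaled, and RPKM use GENCODE M21 exonic lengths. TMM factors were 0.783 to 0.827 for Control and 2.68, 1.14 and 0.641 for DKO replicates 1, 2 and 3. Background per kb was the rate over 8573 protein-coding genes of 10 or fewer Control reads, in 10 GC bins, times exonic length. The abundant-gene scale is the median ratio to the Control mean over 155 nuclear genes with over 30000 Control reads, with background reads left in. The fit was tried on simulated data with the Control proportions and Control spread and without background reads. The biological coefficient of variation was 20.1% in Control alone and 63.9% in the fit of all 6 libraries. That trial therefore cannot show how reliable the calls are here. Promoter sequences are RefSeq's, on GRCm38.p6. Alternatives were DESeq2 1.42.0, its size factors in edgeR, no filter, the abundant-gene scale, background subtraction, the replicate number as a block, and each library left out in turn.

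Members and lists were chosen with earlier results of these data known. Named members are the 12 highest in Control, the highest of each other subfamily with at least 1 RPKM, and up to 8 called per direction by adjusted p. Up to 3 genes were named per other list. Cyp2c23, Cyp2c37, Cyp2c54, Cyp2c67, Cyp2c68, Cyp4a14, Cyp4a31, Cyp2j8, Cyp2s1, Hnf4a, Nr1i3, Alas1, Por, Cyp7a1, Cyp19a1 and Ppargc1a, the genes in the promoter and shared-sequence accounts and the members low in Control were chosen after their values were seen.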

Additional observations from a re-analysis of the deposited data

How the results depend on the processing

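Against 10 members higher and 6 lower, DESeq2's size factors gave 18 lower, DESeq2 30 lower, no filter 16 higher and 32 lower, the abundant-gene scale 17 and 1, and background subtraction 5 higher. Leaving out each library gave 8 to 12 higher and 1 to 33 lower. Against 4871 of all genes higher and 1992 lower, DESeq2's size factors gave 3604 lower, DESeq2 8830 and 4133, no filter 11477 and 4650, the abundant-gene scale 9710 and 84, background subtraction 2306 higher, and leaving out each library 4130 to 5624 higher and 567 to 4492 lower. Replicate numbers did not pair the libraries (correlations of deviations 0.12, 0.073 and -0.020 for numbers 1, 2 and 3). With the replicate block 10 members were higher and 16 lower, 0 regulators higher and 7 lower, and 3 other P450 genes lower. Against 2 electron donors lower, DESeq2 gave 8, no filter 8 with 1 higher, the abundant-gene scale 0 with 1 higher, background subtraction 1, and leaving out a library 0 to 5 lower and 0 to 1 higher. Against 4 haem genes lower, DESeq2's size factors gave 8, DESeq2 9, no filter 9, the abundant-gene scale 0 with 3 higher, and leaving out a library 2 to 8. Against 1 regulator higher and 3 lower, DESeq2's size factors gave 10 lower, DESeq2 11, no filter 17, the abundant-gene scale 8 higher and 0 lower, background subtraction 0 higher, and leaving out a library 0 to 1 higher and 2 to 17 lower. Against 4 other P450 genes higher and 1 lower, DESeq2's size factors gave 3 lower, DESeq2 4, no filter 4, the abundant-gene scale 8 higher and 0 lower, background subtraction 2 higher, and leaving out a library 1 to 4 lower. On the abundant-gene scale DKO sums were 80.4% of Control for Cyp2a (15.5% with TMM), 139% for Cyp2c (15.8%), 161% for Cyp2d (14.6%), 99.3% for Cyp2f (14.2%), 427% for Cyp2j (18.7%), 108.5% for Cyp3a (15.8%), 858% for Cyp4a (29.5%), 244% for Cyp4f (24.3%), 42.1% for Cyp4v (11.8%) and 205% for all members (16.9%). DKO replicate 1 carries several of these means: by replicate 1, 2 and 3, Cyp4a was at 2010%, 122% and 441%, Cyp2j at 996%, 101% and 186%, Cyp2d at 313%, 103% and 67.6%, Cyp2c at 236%, 115% and 64.4% and all members at 388%, 111% and 117%. Negative log2 fold changes turned positive on that scale for Cyp2d10 (0.13), Cyp3a25 (0.18), Cyp2b10 (2.85), Cyp2r1 (1.54), Cyp4b1 (1.47), Cyp3a13 (1.59), Cyp4a32 (1.31), Cyp2c69 (0.50), Cyp2j6 (0.43), Cyp3a59 (0.78), Cyp2c23 (2.19), Cyp4a14 (0.42), Fdx1 (1.68), Pgrmc2 (2.98), Blvrb (2.74), Urod (3.21), Nr1i2 (3.06), Hnf4a (0.12), Alas1 (0.37), Ctnnb1 (0.87) and Jup (3.82). Cyp2u1 turned negative without the filter (-0.083), after background subtraction (-0.30) and without DKO replicate 3, with -0.23 to 0.71 over the libraries left out. Cyp2b10 turned positive without DKO replicate 1 and without DKO replicate 3 (-1.52 to 0.28 over the libraries left out). The cause was not tested. Few gene reads in the DKO-labelled libraries, 309731 to 1491237, limit every member with a low Control level.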

Other observations

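Control replicate 1 stood apart from the other Control libraries in further genes. Cyp2c37, an arachidonic acid epoxygenase, was at 0.589 of the mean CPM of Control replicates 2 and 3. Its CPM were 139, 219 and 254 in Control replicates 1, 2 and 3. Alas1 had 131, 921 and 861 CPM, and Cyp7a1 had 15.8, 189 and 214 CPM.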
